A study of Rattus norvegicus with 44 samples.

Results

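The lowest of the 3 concentrations tested for each of nickel, chromium and cadmium was compared with untreated controls in H4-II-E-C3 cells, a rat hepatoma line that keeps part of the gene expression of liver. The comparison used 12 exposed arrays, 4 each of Nickel 40 µM, Chromium 0.275 µM and Cadmium 0.2 µM, and 8 Control arrays, out of 44 arrays in the series. Cells were exposed for 24 hours in serum-free medium to nickel chloride, sodium dichromate or cadmium chloride, and the Control flasks received no metal. The methods define the low concentration of each metal as a level at which no cell death was observed. Every exposed condition had 1 array for each of 4 biological replicates, and each replicate had 2 control arrays named Control 1 and Control 2. RNA abundance was measured on Affymetrix arrays of the rat genome, on which a probe set is the group of probes that reports 1 transcript. All cells came from 1 tumour line, so the values describe that line and not liver tissue.

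Each array's condition was selected from the order of the sample titles, because the condition printed beside an array and the condition means published with the study did not match. With the 4 titles of repeated microarrays moved to the end of the list, the condition means of the 992 probe sets in the published table differed from those of the arrays by at most 7.5e-06 on the log2 scale over 9 exposures. With each array kept under its own label the median difference was 0.164 and the largest 4.32. The title order changed the condition of 22 of the 44 arrays and of 8 of the 20 used here. Because measured values of the published probe sets entered this check, the 944 of them that passed the filter on low values are described without a test. Tests and counts below refer to the other 15082 probe sets that passed it unless stated, and leaving out the published ones removes the genes with the largest changes at any concentration.

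Nickel, hexavalent chromium and cadmium reach the cell by different routes but share an effect on its thiol and redox balance. NRF2 is a transcription factor held inactive by the thiol-rich protein KEAP1, and when released it induces glutathione synthesis, thioredoxin reduction, NADPH supply and conjugating enzymes. Metallothioneins are small cysteine-rich proteins that bind zinc and cadmium and are induced through the metal-responsive factor MTF-1. In dividing cells such as a hepatoma line, transcripts for replication accumulate before S phase, and those for mitosis accumulate in G2 and M phase under factors that include B-MYB and FOXM1.

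Among the 20 arrays, 1 stood apart. Chromium 0.275 µM replicate 4, which carries the title of a repeated microarray, had a median R2 of 0.909 with the other arrays of its group, whose medians were 0.970 to 0.973, and the methods repeated arrays with an R2 of 0.95 or less. Several chromium list medians and single-gene changes are therefore also given without it. The other chromium values, among them array ranges and counts without overlap, include it. Of hepatocyte markers, 8 of 10 on the array lay above the median signal of all probe sets, a log2 value of 5.97, with albumin at 14.6, whereas apolipoprotein A1 averaged 5.49. None of 5 bile duct and 7 endothelial markers lay above that median, against 2 of 9 stellate and fibroblast and 1 of 8 leukocyte markers. Control 1 and Control 2, compared with each other as a measure of background, gave 0 probe sets (0%) at an adjusted p of at most 0.05 in limma and 577 (3.6%) at an unadjusted p under 0.05 among all tested.

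In the main fits over 3 concentrations per metal, cadmium at 0.2 µM was the only low exposure with changed probe sets outside the published table. More of these were lower than higher. Genes of mitosis and DNA replication such as Mki67, Top2a and Rfc5 fell, with the largest fall for the cyclin Ccna2, and genes of detoxification and NADPH supply such as Gsta3, Akr7a3 and Me1 rose. In limma with the replicate number as a block, 39 probe sets (0.259%) were lower and 13 (0.0862%) were higher at an adjusted p of at most 0.05. The falls ran from -0.68 to -0.32 log2 units and the rises from 0.28 to 0.62, so all changes were under 1.8-fold. The 13 higher probe sets had medians of 0.38 in cadmium, 0.27 in nickel and 0.31 in chromium cells. The 39 lower ones had -0.47, -0.09 and -0.09. None of either group was called in nickel or chromium cells. Single higher probe sets differed, with Me1 at 0.39, 0.38 and 0.42 and Abca7 at 0.34, -0.15 and 0.02 in the same order of metals. Both groups were chosen by their cadmium change and share the Control arrays, so these values are a description. The lower probe sets named 34 genes, of which 14, counted by any probe set of a gene, belonged to the mitosis or replication lists. With each gene represented by its brightest probe set, these lists held 32 and 25 genes among the 15082 probe sets. These counts depended on single replicates: 19 probe sets were called without replicate 1, 102 without replicate 2, and 0 without replicate 3 or without replicate 4. No probe set was called without the block or with each array under its own label, and 593 were called, 385 higher and 208 lower, when only the low and Control arrays entered the fit. The balance of directions also differed with Control 2 alone (22 higher and 20 lower) and with the 8 Control arrays as separate samples (151 higher and 152 lower).

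Before the values, the promoter windows of 6 changed genes are shown as examples. They were picked from a longer list of genes because each holds the letters of a motif known from genes of its pathway. Windows of other changed genes, among them Ccna2 and Akr7a3, are not shown. Each window is the 250 bases before the RefSeq gene start in the GRCr8 rat build, written 5′ to 3′ on the strand of the gene. In the first 4, from genes that were lower in cadmium cells, capitals mark the cell cycle homology region, TTTGAA, and the CCAAT box, each on either strand. Top2a lies on the minus strand at chr10:84473094-84473343, Mki67 on the minus strand at chr1:199952594-199952843, Prc1 on the plus strand at chr1:143659231-143659480 and Birc5 on the plus strand at chr10:103571896-103572145. In the last 2, from genes that were higher, capitals mark the core of the antioxidant response element, TGACNNNGC, on either strand. Me1 lies on the minus strand at chr8:96540245-96540494 and Gsta3 on the plus strand at chr9:31154739-31154988.
Top2a: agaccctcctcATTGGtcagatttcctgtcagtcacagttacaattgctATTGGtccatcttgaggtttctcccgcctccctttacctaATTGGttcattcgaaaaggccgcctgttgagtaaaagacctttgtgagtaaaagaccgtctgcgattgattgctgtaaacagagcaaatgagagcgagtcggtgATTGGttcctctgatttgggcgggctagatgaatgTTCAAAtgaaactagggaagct
Mki67: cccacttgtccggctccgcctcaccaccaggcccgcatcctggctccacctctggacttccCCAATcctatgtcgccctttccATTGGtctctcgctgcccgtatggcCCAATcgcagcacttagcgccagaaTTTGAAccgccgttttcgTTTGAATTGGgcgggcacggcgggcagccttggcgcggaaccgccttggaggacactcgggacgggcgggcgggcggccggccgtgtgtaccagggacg
Prc1: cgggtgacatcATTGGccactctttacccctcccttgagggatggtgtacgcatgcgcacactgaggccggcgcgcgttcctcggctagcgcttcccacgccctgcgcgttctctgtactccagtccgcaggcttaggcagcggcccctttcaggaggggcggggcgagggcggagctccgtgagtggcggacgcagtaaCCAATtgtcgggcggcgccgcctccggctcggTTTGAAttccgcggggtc
Birc5: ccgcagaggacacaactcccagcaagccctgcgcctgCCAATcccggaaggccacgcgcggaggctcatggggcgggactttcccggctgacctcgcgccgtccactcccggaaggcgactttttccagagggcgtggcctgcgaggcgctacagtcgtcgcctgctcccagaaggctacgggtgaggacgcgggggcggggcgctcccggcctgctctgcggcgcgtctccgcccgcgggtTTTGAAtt
Me1: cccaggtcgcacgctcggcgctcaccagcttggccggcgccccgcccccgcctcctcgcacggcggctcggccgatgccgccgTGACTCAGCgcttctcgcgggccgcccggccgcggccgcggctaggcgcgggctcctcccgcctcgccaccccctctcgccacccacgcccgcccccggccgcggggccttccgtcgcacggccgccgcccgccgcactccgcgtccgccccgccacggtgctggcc
Gsta3: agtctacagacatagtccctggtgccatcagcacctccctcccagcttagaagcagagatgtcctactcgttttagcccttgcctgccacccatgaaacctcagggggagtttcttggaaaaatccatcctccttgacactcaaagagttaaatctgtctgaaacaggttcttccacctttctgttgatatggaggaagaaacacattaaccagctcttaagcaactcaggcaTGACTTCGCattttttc

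The TTTGAA letters began 22 bases before the start in Top2a, 18 in Prc1 and 8 in Birc5, and at 117 and 99 bases before it in Mki67, where the second match shares 1 base with a CCAAT match at 94. Of the 32 mitosis genes tested, 27 had a RefSeq window, and 12 of these (44.4%) held TTTGAA, against 4402 of 27457 windows of all genes (16%) and 767 of 7764 windows of tested genes (9.88%). CCAAT was present in 21 of the 27 mitosis windows (77.8%), in 34.3% of all windows and in 36.6% of windows of tested genes. For DNA replication genes, 3 of 44 windows (6.82%) held TTTGAA and 9 (20.5%) held the E2F letters TTTGGCGC or TTTCGCGC, which 0.67% of all windows and 1.28% of windows of tested genes held. TGACNNNGC was present in 5 of 27 windows of NRF2 target genes (18.5%), in 4 of the 9 available windows of genes called higher in cadmium cells (44.4%), in 10.2% of all windows and in 12.8% of windows of tested genes. In Me1 the match began 167 and in Gsta3 17 bases before the start. These matches are letters in a window and were not measured for binding.

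Cyclin A2, the partner of CDK2 and CDK1 in S phase and G2, gave the largest fall. The Ccna2 signal was 7.84, 7.81, 7.52 and 7.07 log2 units in cadmium replicates 1 to 4, against 7.82 to 8.55 with a median of 8.28 in the 8 Control arrays. Cadmium arrays 2 to 4 lay below every Control array, array 2 only just, and array 1 lay inside the Control range. Within each replicate the cadmium array was lower than the mean of its 2 controls, with differences of -0.45, -0.64, -0.74 and -0.90. The fitted change was -0.68 ± 0.08 (SE, n = 4 against 4 replicate means of controls, limma adjusted p = 0.00626).

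Markers of cycling cells followed. The proliferation antigen Mki67 had 8.86, 8.75, 8.45 and 8.15 log2 units in cadmium cells, against 8.79 to 9.33 with a median of 9.20 in Control cells, and 3 of the 4 exposed arrays lay below all controls. Its change was -0.61 ± 0.09 (SE, limma adjusted p = 0.0146). Topoisomerase IIα, which separates sister chromatids and is encoded by Top2a, had 9.22, 9.10, 8.99 and 8.52 in cadmium cells, against 9.13 to 9.72 with a median of 9.53 in Control cells. The change of Top2a was -0.55 ± 0.08 (SE, limma adjusted p = 0.0133).

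For 11 of the 39 probe sets called lower the cadmium and Control arrays did not overlap, and these included Hjurp and Cdca3 as well as Prc1, Nusap1, Birc5, Cdca2, Fam83d and Tfrc. Hjurp, the chaperone that loads the centromeric histone CENP-A, had 7.34, 7.22, 6.97 and 6.74 log2 units in cadmium cells, against 7.48 to 7.81 with a median of 7.71 in Control cells. Cdca3, a mitotic entry factor that directs the kinase WEE1 to degradation, had 8.76, 8.67, 8.40 and 8.22 in cadmium cells, against 8.93 to 9.21 with a median of 9.06 in Control cells. Hjurp fell by 0.62 and Cdca3 by 0.56 on the log2 scale, with SE of 0.09 each and limma adjusted p of 0.00958 and 0.0148. Over all 15082 probe sets the 4 cadmium arrays lay below the 8 controls for 76 (0.504%) and above them for 121 (0.802%).

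**Figure D1:**
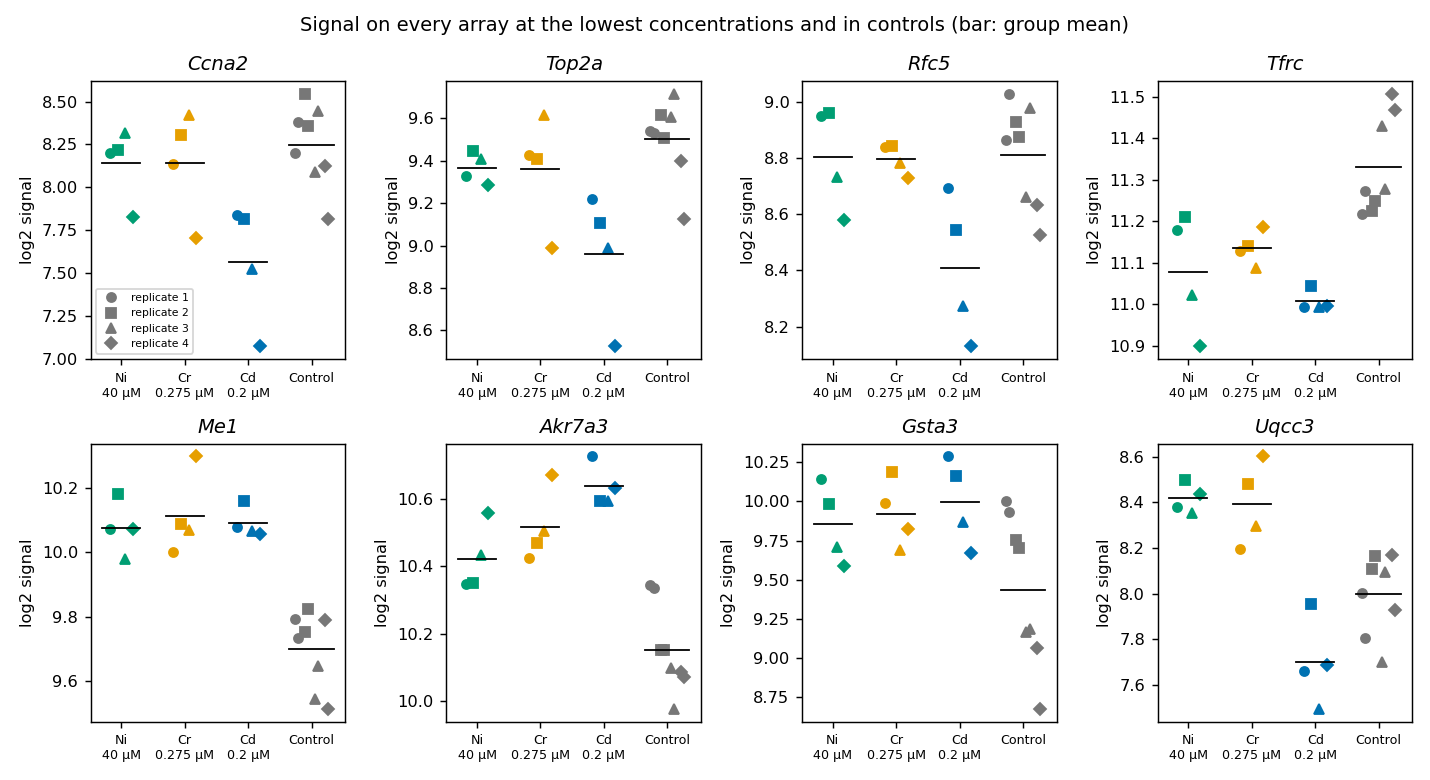
Log2 signal (vertical axes) of 8 genes on each array of Nickel 40 µM, Chromium 0.275 µM, Cadmium 0.2 µM and Control, with marker shapes for replicates 1 to 4 and a bar at the group mean. Ccna2, Top2a and Rfc5 are low in cadmium cells, Me1 is above every Control array in all 3 metals, and Uqcc3 is above the controls in nickel and chromium cells but not in cadmium cells.

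Most of the mitosis list had lower values in cadmium cells. Of its 32 members, none of which was in the published table, 31 had a lower mean in cadmium cells, 29 had an unadjusted p under 0.05, where 2.88% of all probe sets did so in that direction, and 9 were called lower after adjustment over all probe sets, each gene being represented by its brightest probe set. The median change was -0.40, against 0.02 for all probe sets. The medians of replicates 1 to 4 were -0.20, -0.30, -0.53 and -0.62, so all 4 were negative, and those of replicates 3 and 4 were the more so. The same list gave medians between -0.14 and 0.09 for Control 1 minus Control 2. Called members covered the chromosomal passenger complex (Aurkb at -0.49 and Birc5 at -0.37), the central spindle (Prc1 at -0.48 and Racgap1 at -0.47) and the spindle checkpoint (Bub1 at -0.47 and Mad2l1 at -0.36). Cdk1 at -0.44, Plk1 at -0.41 and Ccnb1 at -0.39 did not pass after adjustment, with limma adjusted p of 0.178, 0.0791 and 0.131. Separase, encoded by Espl1, had the only value above 0 at 0.06.

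The replication list had a smaller median. Among its 25 members outside the published table, 21 were lower in cadmium cells and 14 had an unadjusted p under 0.05 and a lower value, with a median of -0.22. The medians of replicates 1 to 4 over these 25 were -0.17, -0.19, -0.25 and -0.21, and the Control 1 minus Control 2 medians ran from -0.16 to 0.08. Rfc5, a subunit of the clamp loader that places PCNA on DNA, had 8.69, 8.54, 8.27 and 8.13 log2 units in cadmium cells, against 8.53 to 9.03 with a median of 8.87 in Control cells, a change of -0.40 ± 0.06 (SE, limma adjusted p = 0.00958). Mcm10, which helps the replicative helicase to open origins, had 8.0, 7.80, 7.50 and 7.36 in cadmium cells, against 7.67 to 8.34 with a median of 8.02 in Control cells. Its 4 within-replicate differences lay between -0.42 and -0.33, the change was -0.36 ± 0.05 (SE) and the limma adjusted p was 0.00958. Dut, the enzyme that keeps uracil out of DNA, fell by 0.34 on the log2 scale (limma adjusted p = 0.0318). The 4 origin recognition genes outside the published table were not called, with Orc2 at -0.03, Orc4 at -0.01, Orc3 at 0.11 and Orc5 at 0.17.

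**Figure D2:**
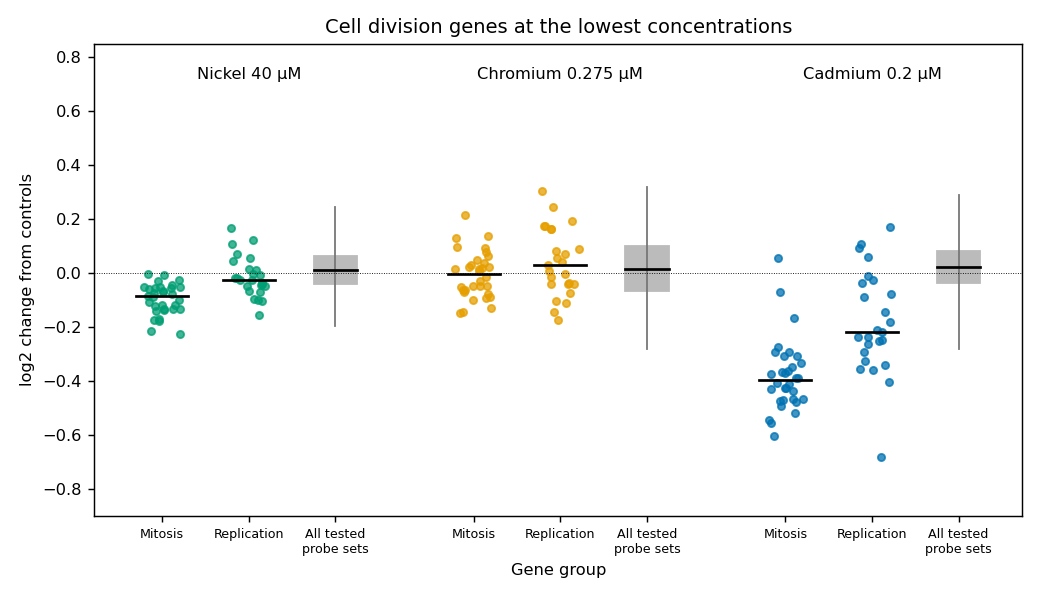
Log2 change from controls (vertical axis) of the genes of the mitosis (n = 32) and replication (n = 25) lists outside the published table, one point per gene with a bar at the median, beside all 15082 probe sets outside that table (box: middle 50%, line: 1st to 99th percentile). Medians were -0.40 and -0.22 in cadmium cells, -0.09 and -0.03 in nickel cells, and -0.00428 and 0.03 in chromium cells.

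Other probe sets called lower in cadmium cells included the centromere genes Cenpw (-0.51), Cenpq (-0.49) and Cenpi (-0.46), the spindle genes Aspm (-0.56), Fam83d (-0.52), Nusap1 (-0.47) and Knstrn (-0.40), the condensin subunit Ncaph (-0.38), the histone methyltransferase Ezh2 (-0.43) and the CDK inhibitor Cdkn2c (-0.36). A probe set shared by Anln and Anlnl1 gave -0.62 and 1 shared by Hmgb2 and its copies gave -0.53, and these cannot be assigned to 1 gene. The transferrin receptor Tfrc, which imports iron, had another pattern. Its values lay between 10.99 and 11.04 log2 units on the 4 cadmium arrays, against 11.22 to 11.51 with a median of 11.28 in Control cells, with no overlap and a change of -0.32 ± 0.07 (SE, limma adjusted p = 0.0454). Tfrc was also below every Control array at the low concentrations of nickel (10.90 to 11.21) and chromium (11.09 to 11.19), where it was not called. The other Tfrc probe set had -0.30 in cadmium cells with a limma adjusted p of 0.106. Other probe sets of Cenpw (-0.40), Nusap1 (-0.43) and Rfc5 (-0.31) were likewise lower in mean but not called.

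The genes called higher in cadmium cells were fewer than those called lower. Gsta3, an alpha-class glutathione transferase, had 10.29, 10.16, 9.87 and 9.67 log2 units in cadmium cells, against 8.67 to 10.00 with a median of 9.44 in Control cells. The ranges overlapped because replicates 1 and 2 were high in both groups, and within replicates the differences were 0.32, 0.43, 0.70 and 0.80. The change of Gsta3 was 0.56 ± 0.11 (SE, limma adjusted p = 0.0432). In nickel cells Gsta3 had 0.42 and in chromium cells 0.49 (0.41 without replicate 4), neither of them called. Akr7a3, an aldo-keto reductase that detoxifies aflatoxin dialdehyde in rat liver, had 10.72, 10.59, 10.59 and 10.63 in cadmium cells, against 9.98 to 10.34 with a median of 10.12 in Control cells. All 4 cadmium arrays were above all controls, and the change was 0.48 ± 0.09 (SE, limma adjusted p = 0.0276).

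Malic enzyme, encoded by Me1, supplies NADPH in the cytosol. In cadmium cells Me1 had 10.08, 10.16, 10.07 and 10.06 log2 units, against 9.51 to 9.82 with a median of 9.74 in Control cells, and it rose by 0.39 ± 0.06 (SE, limma adjusted p = 0.00958). A brighter Me1 probe set had 0.37 ± 0.12 (SE) and was not called. Macrod1, a mitochondrial ADP-ribosyl hydrolase, had 7.26, 6.88, 6.4 and 6.38 in cadmium cells, against 5.61 to 6.73 with a median of 6.26 in Control cells. The cadmium array was higher than its own controls in each replicate, by 0.45 to 0.60, and the change was 0.50 ± 0.08 (SE, limma adjusted p = 0.0146). Smaller rises were called for Slfn4 (0.37), Rell2 (0.35), the lipid transporter Abca7 (0.34), the TGF-β pseudoreceptor Bambi (0.32), Kxd1 (0.31) and the RNA silencing factor Tnrc6a (0.28).

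Across the cadmium concentrations these genes did not follow 1 course. Ccna2 had -0.68 at 0.2 µM, -0.56 at 0.55 µM and 0.01 at 1.2 µM, while Tfrc had -0.32, -0.50 and -0.54. Bambi had 0.32, 0.63 and 0.69, and Macrod1 had 0.50, 0.41 and -0.35. Of the 39 probe sets called lower at 0.2 µM, 31 were also called lower at 0.55 µM. At 1.2 µM, 18 were called lower and 1, Mad2l1 at 0.21, was called higher, 34 had a smaller absolute change than at 0.2 µM, and 7 had the opposite sign. Since these were chosen by their change at 0.2 µM, these counts are a description. The whole mitosis list, not chosen in this way, had medians of -0.40 at the low, -0.27 at the middle and -0.22 at the high concentration, and the 25 replication members outside the published table -0.22, -0.07 and 0.12.

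**Figure D3:**
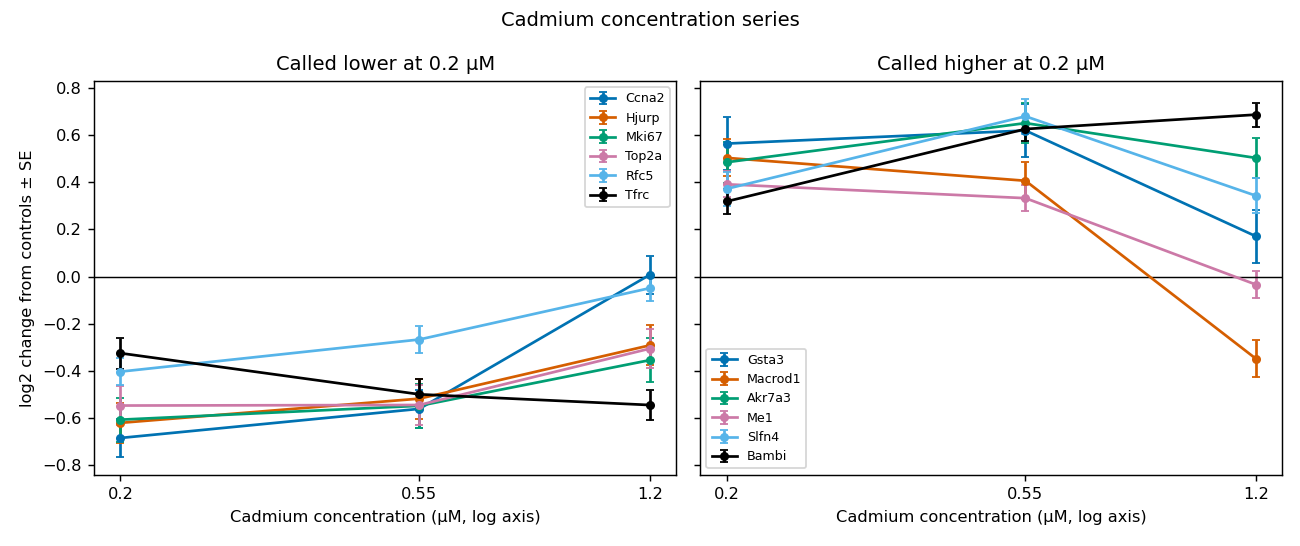
Log2 change from controls ± SE (vertical axis) at cadmium concentrations of 0.2 µM, 0.55 µM and 1.2 µM (log axis) for 6 genes called lower and 6 called higher at 0.2 µM. Ccna2 and Rfc5 return to 0.01 and -0.05 at 1.2 µM, Tfrc stays at -0.54 and Bambi at 0.69.

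The NRF2 and glutathione list had a median above 0 at the low concentration of each metal, by a small amount. Because the 3 comparisons share the same 8 Control arrays, their values are given side by side and are not independent of one another. Of the 30 tested members 19 were not in the published table, with median changes of 0.16 in nickel, 0.19 in chromium and 0.24 in cadmium cells, against 0.01, 0.02 and 0.02 for all probe sets. Of the 19, 16 had a value above 0 in nickel, 16 in chromium and 18 in cadmium cells, where 55.2%, 55.3% and 61.1% of all probe sets did. Of the same 19, 6 had an unadjusted p under 0.05 and a higher value in nickel cells, 9 in chromium cells and 13 in cadmium cells, against 2.27%, 6.9% and 5.84% of all probe sets. For Control 1 minus Control 2 the count was 1 and the median 0.05. After adjustment over all probe sets 1 of the 19 was called, Gsta3 in cadmium cells.

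Over the 19 members the medians of replicates 1 to 4 were 0.09, 0.18, 0.21 and 0.20 in nickel cells, 0.05, 0.17, 0.21 and 0.17 in chromium cells, and 0.19, 0.22, 0.30 and 0.30 in cadmium cells. The 4 Control 1 minus Control 2 medians ran from -0.00723 to 0.14, and the highest of these, in replicate 4, overlapped the range of the nickel and chromium values. Without chromium replicate 4 the chromium median was 0.18, with 9 again at an unadjusted p under 0.05. None of the 19 was called between any 2 metals in limma.

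**Figure D4:**
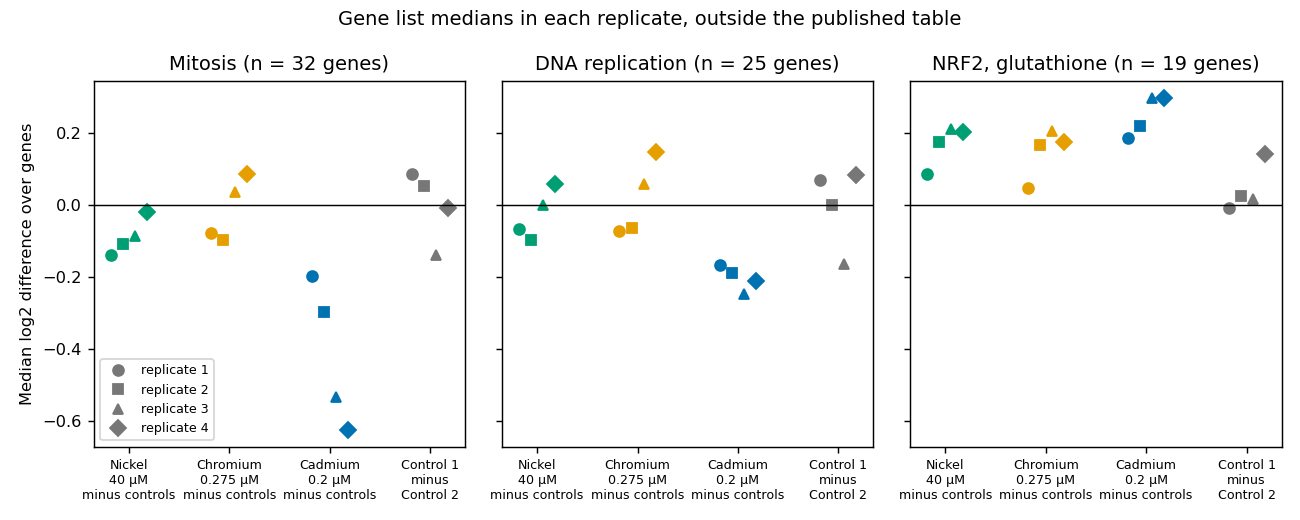
Median log2 difference over the genes of 3 lists outside the published table (vertical axes; n = 32, 25 and 19) in replicates 1 to 4 for Nickel 40 µM, Chromium 0.275 µM and Cadmium 0.2 µM minus the mean of the 2 controls of that replicate, and for Control 1 minus Control 2. The mitosis list reaches -0.62 in cadmium cells, and the NRF2 list lies between 0.05 and 0.30 in all 3 metals.

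Among single genes outside the published table, the Me1 probe set called in cadmium cells was also above all controls in the other metals. It had 10.07, 10.18, 9.98 and 10.07 log2 units in nickel cells and 10.00, 10.09, 10.07 and 10.30 in chromium cells, against at most 9.82 in Control cells. Its changes were 0.38 ± 0.12 in nickel cells and 0.42 ± 0.08 in chromium cells (SE), with limma adjusted p of 1.00 and 0.157, and without chromium replicate 4 the chromium change was 0.35. The brighter Me1 probe set, which stands for the gene in the list, had 0.34 in nickel and 0.27 in chromium cells. Ugdh, which makes UDP-glucuronic acid, had 12.68 to 12.71 in nickel, 12.77 to 13.07 in chromium and 12.70 to 12.85 in cadmium cells, against 12.13 to 12.59 in Control cells. Again no exposed array overlapped the controls, and in cadmium cells the limma adjusted p was 0.0579.

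The efflux pump Abcc4, which exports cyclic nucleotides and conjugated anions, had 9.12 to 9.26 in nickel, 9.12 to 9.30 in chromium and 9.08 to 9.20 in cadmium cells, against 8.63 to 9.02 in Control cells. The autophagy receptor Sqstm1, which competes with NRF2 for KEAP1, had changes of 0.24 ± 0.06 in nickel, 0.27 ± 0.06 in chromium and 0.19 ± 0.06 in cadmium cells (SE), none of them called. Akr7a3, which is not in the list, was likewise above every Control array in nickel (10.35 to 10.56) and chromium (10.43 to 10.67) cells. Over all 15082 probe sets outside the published table, 80 (0.53%) lay above all controls in nickel cells and 89 (0.59%) in chromium cells, and 30 (0.199%) and 23 (0.152%) lay below them. Within the 19 NRF2 members the counts above all controls were 8 in nickel, 3 in chromium and 8 in cadmium cells, and none lay below.

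Members differed in which metal gave the larger value. Gsr, glutathione reductase, had 9.30, 9.39, 9.44 and 9.34 log2 units in nickel cells, against 8.74 to 9.27 in Control cells, a change of 0.40 ± 0.13 (SE), and its changes were 0.05 in chromium and 0.17 in cadmium cells. Without chromium replicate 4 the Gsr change in chromium cells was 0.23. Gstm1, a mu-class glutathione transferase, had 0.33 in cadmium cells, against 0.11 in nickel and 0.04 in chromium cells (0.07 without replicate 4). The microsomal epoxide hydrolase Ephx1 had 0.26 in cadmium, 0.01 in nickel and 0.05 in chromium cells (0.00336 without replicate 4). None of these differences between metals was called. Ggt1, which splits extracellular glutathione, had values below 0 in all 3 metals, at -0.21, -0.18 and -0.05 in nickel, chromium and cadmium cells.

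**Figure D5:**
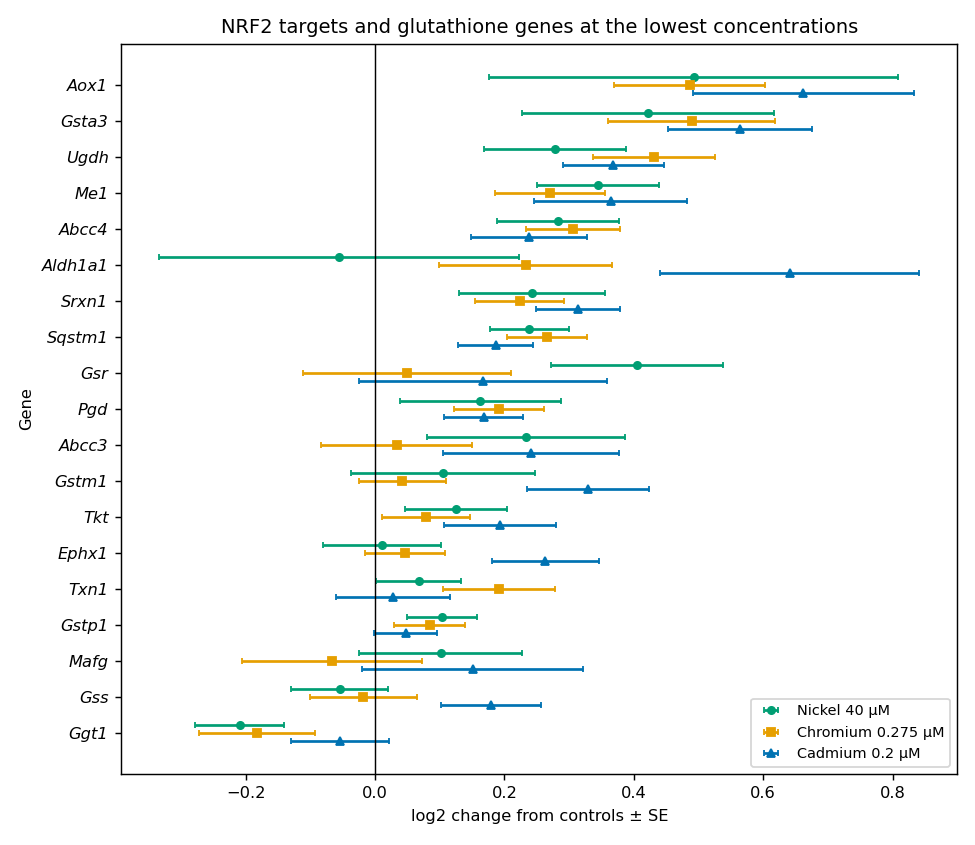
Log2 change from controls ± SE (horizontal axis) for the 19 NRF2 target and glutathione genes outside the published table at Nickel 40 µM, Chromium 0.275 µM and Cadmium 0.2 µM, ordered by the mean of the 3 metals. Most points lie above 0, Ggt1 lies below 0 in each metal, and Gsta3 in cadmium cells (0.56) is the only value called.

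The published members of the group are described without a test. Gclc, the catalytic subunit of the enzyme that limits glutathione synthesis, had 11.11 to 11.17 log2 units in nickel, 11.14 to 11.22 in chromium and 11.13 to 11.22 in cadmium cells, against 10.85 to 11.03 in Control cells, with no overlap. The thioredoxin reductase Txnrd1 had 11.88, 11.89, 11.79 and 11.68 in cadmium cells, against 11.17 to 11.64 in Control cells. Nqo1, a quinone reductase, had changes of 0.31 in nickel, 0.47 in chromium and 0.32 in cadmium cells, and without chromium replicate 4 the chromium value was 0.34. The haem oxygenase Hmox1 overlapped the controls in each metal (8.35 to 9.04 in nickel, 8.35 to 8.97 in chromium and 8.41 to 9.0 in cadmium cells, against 8.05 to 8.86 in Control cells).

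Xenobiotic metabolism genes were described in the same way. Of 23 members outside the published table, 21 had a higher mean in cadmium cells, where 61.1% of all probe sets did, and 11 were higher at an unadjusted p under 0.05, where 5.84% of all probe sets were, with a median of 0.18, against medians of 0.01 in nickel and 0.06 in chromium cells (0.02 without replicate 4). Gsta3 was the only member called. The glutathione transferases Gstt1 at 0.29, Gstm4 at 0.23 and Gstt2 at 0.22 were not, and Gsta3, Gstm1 and Ephx1 belong to both lists. Plasma protein genes had a median of 0.07 in cadmium cells with 19 of 21 members above 0, where 61.1% of all probe sets were, and 18 of the same 21 were above 0 for Control 1 minus Control 2.

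Nickel at 40 µM gave 0 called probe sets outside the published table (0 of 15082, 0%) at an adjusted p of at most 0.05 in limma. An ordinary linear model without moderation gave 0 as well. Both took the spread from all 3 nickel concentrations and Control. With only the low and Control arrays in the fit, 81 were called, 62 higher and 19 lower. In the main fit, at an unadjusted p under 0.05, 343 (2.27%) were higher and 199 (1.32%) lower. No tested probe set reached a 1.5-fold difference. Among genes without overlap between groups, Ppip5k1, an inositol pyrophosphate kinase, had 6.65, 6.72, 6.54 and 6.48 log2 units in nickel cells, against 5.93 to 6.33 in Control cells, a change of 0.38 ± 0.08 (SE). The liver transcription factor Cebpa had 6.30, 6.53, 6.69 and 6.41 in nickel cells, against 5.61 to 6.27 in Control cells, and a change of 0.45 ± 0.14 (SE), but a brighter Cebpa probe set gave 0.17 ± 0.13 and overlapped. Pfkfb1, which sets fructose 2,6-bisphosphate and so glycolysis, was below all controls at 6.65, 6.49, 6.81 and 6.79 in nickel cells, against 6.87 to 7.13 in Control cells. All 32 mitosis genes had a value below 0 in nickel cells, where 6762 of all 15082 probe sets did, with a median of -0.09. Of the 32, 3 had an unadjusted p under 0.05, where 1.32% of all probe sets did so in that direction. The list medians of nickel replicates 1 to 4 ran from -0.14 to -0.02, and those of Control 1 minus Control 2 from -0.14 to 0.09.

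Chromium at 0.275 µM likewise gave 0 called probe sets (0%) in limma and 0 in the ordinary linear model. At an unadjusted p under 0.05, 1040 (6.9%) were higher and 272 (1.8%) lower, and 8 of all tested probe sets reached 1.5-fold, against 3 for Control 1 minus Control 2. Without replicate 4, 5 reached 1.5-fold and the count called was again 0. Ocrl, an inositol phosphatase of endosomes, had 6.56, 6.66, 6.23 and 6.64 log2 units in chromium cells, against 5.83 to 6.15 in Control cells, a change of 0.51 ± 0.10 (SE, limma adjusted p = 0.192), and 0.44 without replicate 4. The histone chaperone Asf1a had 7.47, 7.60, 7.35 and 7.43 in chromium cells, against 6.79 to 7.19 in Control cells, a change of 0.41 ± 0.09 (SE, limma adjusted p = 0.223), and 0.36 without replicate 4. The mitosis list had a median of -0.00428 and the replication list without its published members 0.03 in chromium cells, and without replicate 4 they were -0.02 and 0.00144. With the 8 Control arrays kept as separate samples 51 probe sets were called in chromium cells.

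The 3 metals were then set against each other in a joint fit of all conditions. Nickel minus chromium gave 0 of all tested probe sets (0%), nickel minus cadmium 48 (0.3%) and chromium minus cadmium 61 (0.381%) at an adjusted p of at most 0.05 in limma, with 828, 1229 and 1345 at an unadjusted p under 0.05. Outside the published table these were 37 for nickel minus cadmium, 14 above 0 and 23 below, and 42 for chromium minus cadmium, 36 above 0 and 6 below. Division genes formed part of both. Of the mitosis list, 8 of 32 were called above 0 for chromium minus cadmium, with a median difference of 0.38, and 2 for nickel minus cadmium, with a median of 0.30. Mki67 differed by 0.47 for nickel minus cadmium and 0.46 for chromium minus cadmium (limma adjusted p of 0.0344 and 0.0296), Rfc5 by 0.39 in each (0.0220 and 0.0248), and Hjurp by 0.45 for chromium minus cadmium (0.0248). These counts rested on few arrays. Without chromium replicate 4 the chromium minus cadmium count was 2, and without any 1 replicate number the counts were 1 to 6 for nickel minus cadmium and 1 to 40 for chromium minus cadmium.

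Uqcc3, an assembly factor of respiratory complex III, had opposite signs among the metals. It had 8.38, 8.50, 8.35 and 8.44 log2 units in nickel cells, 8.19, 8.48, 8.29 and 8.60 in chromium cells and 7.66, 7.95, 7.49 and 7.69 in cadmium cells, against 7.70 to 8.17 in Control cells. Nickel and chromium arrays lay above all controls, the lowest chromium array only just. Of the 4 cadmium arrays 3 lay below all controls, array 4 only just. Uqcc3 was not called against controls in any metal. The difference was 0.72 for nickel minus cadmium and 0.69 for chromium minus cadmium (limma adjusted p of 0.0400 and 0.0425), and without chromium replicate 4 the chromium change from controls was 0.33 in place of 0.40. Bcs1l, another complex III assembly factor and a published gene described without a test, had changes of 0.57 in nickel, 0.68 in chromium (0.55 without replicate 4) and -0.17 in cadmium cells. The respiratory chain list as a whole had medians of 0.02 in nickel, 0.03 in chromium (0.002 without replicate 4) and -0.03 in cadmium cells.

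Some published genes had like values in all 3 metals, and these are a description. Klf5, a zinc finger transcription factor, had 6.38 to 6.62 log2 units in nickel, 6.57 to 6.73 in chromium and 6.38 to 6.53 in cadmium cells, against 5.70 to 6.28 in Control cells. The ATP and UTP receptor P2ry2 had 6.89 to 7.21 in nickel, 6.89 to 7.16 in chromium and 7.01 to 7.10 in cadmium cells, against 6.35 to 6.67 in Control cells. Both were above every Control array in each metal. Ly6i, a surface antigen of the Ly6 family, was above all Control arrays on 3 of the 4 cadmium arrays, with 7.60, 6.70, 6.81 and 6.45, against 5.54 to 6.07 in nickel, 5.66 to 5.99 in chromium and 5.45 to 6.59 in Control cells. Its cadmium change was 0.95 at 0.2 µM, 1.61 at 0.55 µM and 1.8 at 1.2 µM.

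Groups tied to the best known effects of these metals had medians near 0 at the low concentrations, taken over members outside the published table. Left out as published were 6 of 20 tested metallothionein and zinc transport genes, 20 of 32 HIF targets, 6 of 21 heat shock chaperones and 2 of 46 DNA repair genes. With the published members kept, the medians of these lists lay between -0.07 and 0.07 in the 3 metals. Of 14 metallothionein and zinc transport genes outside the published table, none had an unadjusted p under 0.05 in any metal, and the medians were -0.00174 in nickel, 0.01 in chromium and 0.04 in cadmium cells. The published metallothionein Mt2A had 7.53, 7.96, 7.87 and 7.69 log2 units in nickel cells, against 7.02 to 7.50 in Control cells, and in cadmium cells its change was 0.14 at 0.2 µM, 1.56 at 0.55 µM and 5.21 at 1.2 µM. HIF target genes, hypoxia responders that nickel is known to induce, had medians of 0.0001 in nickel, -0.08 in chromium (-0.00333 without replicate 4) and 0.04 in cadmium cells over 12 members, none with an unadjusted p under 0.05. Heat shock chaperones had medians of 0.02 in nickel, 0.00294 in chromium (0.02 without replicate 4) and 0.02 in cadmium cells over 15 members with no such p. DNA repair genes had medians of 0.01 in nickel, 0.07 in chromium (0.05 without replicate 4) and -0.00121 in cadmium cells over 44 members. In cadmium cells 2 of them were higher and 5 lower at an unadjusted p under 0.05, where 5.84% and 2.88% of all probe sets were. In chromium cells 3 of the 44 were higher and none lower, where 6.9% and 1.8% of all probe sets were. Without replicate 4 the chromium count higher was 2.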

How the data were processed

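RNA was measured on 44 one-colour arrays. The deposited matrix holds log2 signal that the authors normalised by RMA in Partek, per the submitters' processing notes, for 31042 non-control probe sets, of which 20826 name 1 gene, 436 several and 9780 none. Scanner files were not used here. The 16026 probe sets with the highest minimum signal in any condition were tested, in place of present calls. A dim probe set could pass through 1 exposed condition alone, so such probe sets can enter the counts above all controls. For each metal on its own, as in the methods, limma 3.58.1 in R 4.3.3 was fitted to 16 values. These were 3 concentrations and Control, the 2 control arrays of a replicate averaged. The replicate number was a block, leaving 9 residual degrees of freedom. Metals were compared in 1 joint fit of all conditions. P-values were adjusted by Benjamini-Hochberg over all 16026 and called at 0.05 or less. The block numbers are the labels' biological replicates, whereas the methods fitted a batch factor for experimental and processing dates. Repeated microarrays were kept under their replicate number. Low-concentration arrays and controls of the same number deviated together in all 12 pairs (r of 0.36 to 0.839). P-values measure only the spread between these samples, and the number of arrays limits their precision.

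Named genes were the 10 largest called changes per direction and metal outside the published table (with fewer than 5, the 5 largest without overlap), the 10 largest inside it, genes measured by qPCR in the study, and up to 4 per gene list. Other genes were chosen after their values were seen. Members and lists were chosen with earlier results of these data known. The fit was tested on simulated data. Alternatives varied the labels, controls, block, filter, scaling and replicates. Promoters came from RefSeq on GRCr8.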

Additional observations from a re-analysis of the deposited data

Results flagged for a closer look

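Among 105 groups of array values examined for a single distant array, 4 held one, where chance gives about 1 in 20. Chromium 0.275 µM replicate 4 had a median R2 of 0.909 with its group. One cadmium array of Tfrc stood at 11.04 while the other three lay within 0.01 of each other, and one chromium array of Ugdh stood at 13.07. For P2ry2, one Control array stood low at 6.35.

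The low concentrations differed from each other for 48 probe sets between nickel and cadmium and for 61 between chromium and cadmium (joint limma fit). Of the genes described above, the differences for nickel minus cadmium and chromium minus cadmium were 0.47 and 0.46 for Mki67, 0.41 and 0.43 for Cdca3, 0.39 and 0.39 for Rfc5, 0.33 and 0.32 for Mcm10, and 0.72 and 0.69 for Uqcc3. For Hjurp only the chromium minus cadmium difference of 0.45 was called. The limma adjusted p-values of these differences lay between 0.0220 and 0.0425.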

How the results depend on the processing

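The count of 52 probe sets called in cadmium cells depended on how the spread was estimated. It was 0 without the replicate block, 0 with each array under its own label, 0 at the threshold of the methods (adjusted p of 0.001 and 1.8-fold), 10 with an ordinary linear model without moderation, 303 with the 8 Control arrays as separate samples and 593 with low and Control arrays alone (385 higher and 208 lower, against 13 and 39). The last 2 held all 52. Leaving out a replicate number gave 0 to 102. Nickel gave 81 with low and Control arrays alone, and chromium gave 51 with separate Control arrays. Nickel minus cadmium gave 27 in place of 48 after subtracting array medians, 0 without the block, 0 under own labels and 1 to 6 without a replicate. Chromium minus cadmium gave 0 in place of 61 without the block, 0 under own labels, 1 to 40 without a replicate, and 2 without Chromium 0.275 µM replicate 4, an alternative chosen after seeing the data. Medians over all tested members of the mitosis, replication and NRF2 lists were run under fewer alternatives. None of these left out a whole replicate number, and fitting without the block left the medians unchanged. Within these runs the medians in cadmium cells and the NRF2 medians kept their sign. Under own labels the nickel NRF2 median was 0.134 and the cadmium mitosis median -0.205. Medians near 0 did not all keep their sign. The nickel mitosis median was 0.00954 under own labels, the chromium mitosis median of -0.00428 became 0.0192 with array medians subtracted and 0.00257 with the mean of all probe sets of a gene, and the chromium replication median of 0.05 was -0.019 under own labels and 0.0183 without Chromium 0.275 µM replicate 4. Of 142 values for single genes, only 20 were called in the main fit. All 20 lost their call without the block, without replicate 3 and without replicate 4. Cadmium counts stayed within 1.5 times of 52 with Control 1 alone (57), Control 2 alone (42), the joint fit (40) and no filter (36). The members changed more than the counts. Of the 52, 47 were called again with Control 1 alone, 26 with Control 2 alone, 29 in the joint fit and 34 with no filter.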
